A study of Mus musculus with 12 samples.

Results

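The transcripts of p53 and of 8 genes that p53 is known to switch on were followed in mouse fibroblasts. The members were taken as the rows of the raw count table with the gene names Trp53, Cdkn1a, Mdm2, Ccng1, Trp53inp1, Phlda3, Sesn1, Plk2 and Zmat3, which gave 9 of the 54447 features in the table, and all 9 passed the filter on low counts. The 12 libraries formed 4 groups of 3: NLS-N-VEGF cells and N-VEGF cells, each without and with doxycycline (dox). N-VEGF is an N-terminal stretch that a longer VEGF protein carries, and NLS-N-VEGF adds to it the nuclear localization sequence of Cas9. Both were carried by a lentivirus under a dox-inducible (Tet-on) promoter, so all 4 groups had been infected and selected with puromycin, and each population was a resistant pool. No library from uninfected cells was analysed here, so an effect of dox itself cannot be told apart from that of the induced protein in either population alone. The labels call the cells mouse embryonic fibroblasts, and the study's methods name the line NIH3T3, an immortalized fibroblast line. All 12 libraries came from these cells, and no primary fibroblasts were compared with them. Each label also ends in _120519 (8 libraries, numbered 1 and 2 in each group) or _290419 (4 libraries, numbered 2 in each group), and the labels do not say what this suffix stands for.

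p53 (Trp53) is a transcription factor that is held at a low level by Mdm2, a ubiquitin ligase that is itself a p53 target, and that is released from Mdm2 after DNA damage or other stress. It binds a response element made of a pair of half-sites and raises genes that stop the cell cycle (Cdkn1a), repair DNA, limit growth signals or start apoptosis. Mouse fibroblasts usually escape senescence by losing either p53 itself or the Cdkn2a locus, whose ARF product holds Mdm2 in check. Because p53 is controlled mainly as a protein, its activity is commonly read from the transcripts of its targets and not from Trp53.

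RefSeq promoter windows (build GRCm38.p6, from 250 bases before to 50 bases after a transcript start) were found for 7 of the 9 members, 9 windows in all, with none for Trp53inp1 and Zmat3. The p53 response element was searched as the consensus p53 half-site repeated with no spacer, with at most 2 mismatches in 20 bases and none in the C and G at the centre of a half-site. The element reads the same on both strands. A match was found in 107 of 32851 windows of all genes, or 0.326%, and among the members in the upstream window of Cdkn1a and in the window of Ccng1. These windows are shown because they hold the only matches among the members. The 20 matched bases are in capitals, and each window is written 5′ to 3′ along the gene's strand.
Cdkn1a, chr17:29090729-29091028, plus strand: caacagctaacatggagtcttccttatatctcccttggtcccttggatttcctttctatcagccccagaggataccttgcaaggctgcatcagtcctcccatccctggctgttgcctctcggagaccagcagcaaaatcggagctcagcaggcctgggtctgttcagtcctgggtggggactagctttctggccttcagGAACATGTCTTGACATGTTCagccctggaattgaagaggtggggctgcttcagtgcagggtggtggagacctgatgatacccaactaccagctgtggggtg
Ccng1, chr11:40755237-40755536, minus strand: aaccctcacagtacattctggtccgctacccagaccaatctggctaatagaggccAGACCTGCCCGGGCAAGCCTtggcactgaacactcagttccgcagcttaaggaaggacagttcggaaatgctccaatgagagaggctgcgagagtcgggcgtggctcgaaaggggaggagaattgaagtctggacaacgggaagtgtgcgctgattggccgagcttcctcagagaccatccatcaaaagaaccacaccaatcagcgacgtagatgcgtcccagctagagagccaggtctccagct
The match in Cdkn1a lay at chr17:29090928-29090947, from 51 to 32 bases before the start of this transcript, and that in Ccng1 at chr11:40755462-40755481, from 195 to 176 bases before the start. Each had 1 mismatch in 20 bases. No match was in the windows of Trp53, Mdm2, Phlda3 and Plk2, in both windows of Sesn1 or in the second window of Cdkn1a. That second window belongs to a start further downstream, at chr17:29093769, and the Cdkn1a match lies farther from that start. Sequence outside the windows was not searched, so a gene without a match here may hold an element elsewhere. Perfect half-sites, which 8.36% of all windows hold, were in the windows of Trp53, Mdm2 and Ccng1 (1 each), in 1 window of Sesn1 (1) and in the upstream window of Cdkn1a (2). A match is a description of letters, and binding was not measured.

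**Figure D1:**
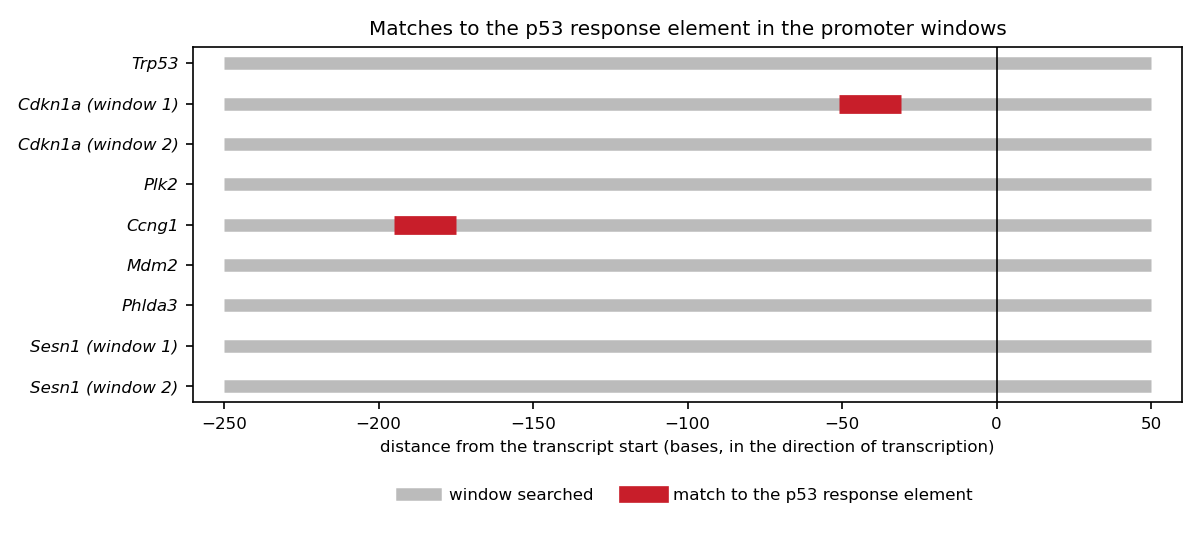
The 9 RefSeq promoter windows of 7 members are drawn as grey bars against the distance from the transcript start in bases, with matches to the p53 response element in red. The 1 match in Cdkn1a window 1 lies nearer to the start than the 1 match in Ccng1, and the other 7 windows hold none.

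All 9 members were transcribed in every library. Per kilobase of annotated exon, the mean level over the 12 libraries, in CPM per kilobase (CPM is counts scaled by the TMM-adjusted library size), was highest for Trp53 at 43.1, followed by Ccng1 at 41.7, Phlda3 at 41.4 and Mdm2 at 39.8. The ranges of these 4 genes over the libraries overlapped, so their order is not resolved. Plk2 followed at 25.3 and Cdkn1a at 18.96, with ranges that overlapped each other (18.3 to 30.7 and 14.1 to 27.2). Plk2 also reached into the range of Ccng1, whose lowest library had 30.03, so only Cdkn1a lay below all values of the 4 leading genes. Sesn1 at 8.57 and Zmat3 at 7.39 overlapped as well. Trp53inp1 was lowest, between 0.941 and 1.88. Cdkn2a, which encodes p16INK4a and ARF, had 0 counts in 12 of 12 libraries, where a count of 0 allows up to 0.158 to 0.221 CPM. NIH3T3 cells are known to lack this locus. Mdm4, the partner of Mdm2 that blocks p53, had a mean of 95.5 CPM, with 61.0 CPM in N-VEGF no dox library 1_120519 and 90.9 to 108 CPM in the other 11 libraries.

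The libraries held between 13549331 and 18982127 counts. The insert carried by the virus had 5 to 12 counts in the 6 libraries without dox and 35 to 268 in the 6 with dox. These ranges pool both populations, so whether the 2 were induced alike was not tested. All 9 fibroblast markers were detected, with summed levels of 11222 to 14170 CPM in the _120519 libraries and 11562 to 13146 CPM in the _290419 libraries. The 5 epithelial markers summed to at most 1.87 CPM with Krt19 at 0, the 4 endothelial markers to at most 4.49 CPM and the 4 hematopoietic markers to at most 13.5 CPM. No pair of libraries of 1 group agreed within sampling noise (chi-square per gene from 1.76 to 76.1), and N-VEGF no dox library 1_120519 differed most from the others and detected the fewest genes, 19976. Nothing in the labels says that libraries of a group came from separate cultures, so p-values measure the spread between these libraries, which may be technical. In bulk RNA, fewer cells of a kind and less RNA per cell cannot be told apart.

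**Figure D2:**
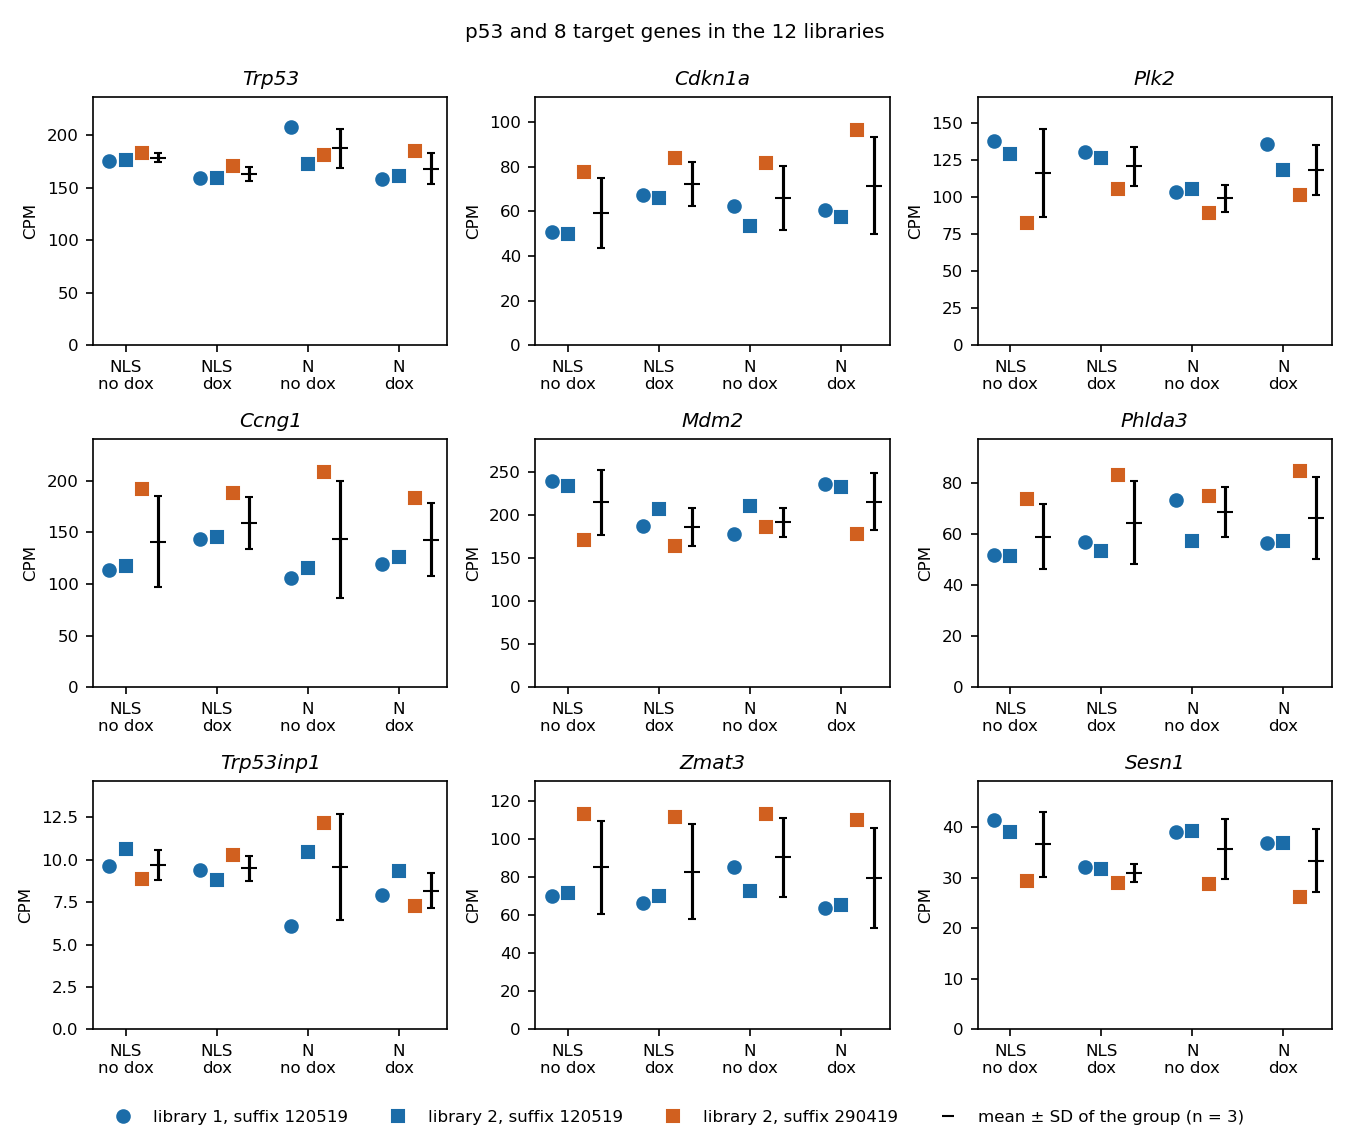
CPM of the 9 members (1 panel each, axis from 0) in the 12 libraries by group, with blue points for suffix _120519, orange points for suffix _290419, and black bars for the mean ± SD of each group (n = 3). Orange points stand above every blue point for Cdkn1a, Ccng1, Phlda3 and Zmat3 and below every blue point for Sesn1, while the 4 groups overlap for every gene but Trp53 and Plk2, where the ranges of NLS-N-VEGF cells with dox and N-VEGF cells without dox lie apart (for Trp53 also those of NLS-N-VEGF cells without and with dox).

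Of the 9 members 7 passed the test between the label suffixes, and 0 passed between the 4 groups. In the _290419 libraries Zmat3, Ccng1, Cdkn1a and Phlda3 were 1.59-fold, 1.57-fold, 1.45-fold and 1.39-fold higher than in the _120519 libraries of the same groups, whereas Sesn1, Plk2 and Mdm2 were 1.30-fold, 1.30-fold and 1.23-fold lower. Trp53 did not pass the test, at a log2 fold change of 0.08 (SE 0.06, adjusted p = 0.30), nor did Trp53inp1, at 0.09 (SE 0.14, adjusted p = 0.60). Adjusted p-values here and below are Benjamini-Hochberg adjusted over 13608 genes, from edgeR's two-sided quasi-likelihood test, and for the suffix the fit had 1 mean per group plus the suffix.

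This count has to be read against the rest of the transcriptome. Between the suffixes 6207 of 13608 genes passed, a background of 45.6% (53% at an unadjusted p under 0.05), and 22.2% of genes were higher and 23.5% lower. Of the 9 members 4 were higher and 3 lower. The median size of the log2 fold change was 0.38 over the members and 0.21 over all genes tested. Members whose libraries did not overlap between the suffixes numbered 4 higher, against 13.1% of all genes, and 1 lower, against 14.9%. The suffix marks a difference across the whole table, and its source was not tested.

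Cdkn1a encodes p21, the inhibitor of cyclin-dependent kinases through which p53 arrests the cell cycle. In NLS-N-VEGF cells without dox its level was 50.6 and 50.04 CPM in the _120519 libraries and 77.6 CPM in the _290419 library. With dox these cells had 67.2, 66.1 and 83.9 CPM in the same order. The N-VEGF libraries had 62.5, 53.6 and 81.8 CPM when untreated, and 60.5, 57.7 and 96.6 CPM under dox. The _290419 library was the highest of each group, and all 4 stood above the highest _120519 library. The log2 fold change was 0.54 (SE 0.06, adjusted p = 4.9e-06), with 4 of 4 groups in the same direction (0.33 to 0.71). Of the annotated exon bases of Cdkn1a, 7.68% overlap an antisense gene, and since the strand setting of the counting was not stated, reads from that stretch cannot be assigned to 1 gene. None of the other 8 members shares exon bases with another gene.

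Plk2, a polo-like kinase that p53 induces and that acts at checkpoints and in centriole duplication, went the other way. Its level was 82.4, 106, 88.8 and 101 CPM in the _290419 libraries, and 103 CPM at the lowest, 127 CPM at the median and 138 CPM at the highest in the 8 libraries of _120519. The ranges overlapped through the _290419 library of dox-treated NLS-N-VEGF cells. The log2 fold change was -0.38 (SE 0.07, adjusted p = 3.6e-04), lower in 4 of 4 groups.

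The 2 members that act on p53 itself moved apart. Mdm2 was at 172, 164, 187 and 178 CPM in the _290419 libraries and between 178 and 239 CPM, with a median of 222 CPM, in the _120519 libraries. The lowest of the latter was N-VEGF no dox library 1_120519, and the ranges overlapped through it. Its log2 fold change was -0.29 (SE 0.07, adjusted p = 0.0020). The call was lost when libraries without dox or N-VEGF libraries were fitted alone (adjusted p = 0.15 in both, log2 fold changes -0.25 and -0.23). Ccng1 encodes cyclin G1, which recruits a phosphatase to Mdm2, and it had the widest spread of the members over the 12 libraries. It was at 192, 188, 208 and 183 CPM in the _290419 libraries and between 105 and 145 CPM, with a median of 119 CPM, in the others. The log2 fold change was 0.65 (SE 0.07, adjusted p = 1.9e-06), and the 2 sets did not overlap.

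Among the members linked to cell death and growth signals, Phlda3, which holds back Akt at the membrane, had 73.5, 83.0, 75.0 and 84.7 CPM in the _290419 libraries. The _120519 libraries ran from 51.4 to 73.3 CPM with a median of 56.6 CPM. The sets were separated by a narrow margin that N-VEGF no dox library 1_120519 set, as it had the highest value of its set. The log2 fold change was 0.47 (SE 0.07, adjusted p = 6.3e-05). Trp53inp1, a nuclear protein that assists p53 in apoptosis, was at 8.85, 10.3, 12.2 and 7.30 CPM in the _290419 libraries and between 6.10 and 10.6 CPM in the others, and the sets overlapped. The lowest value was again that of N-VEGF no dox library 1_120519, without which the log2 fold change of Trp53inp1 was -0.01. It was higher in 2 of 4 groups and lower in the other 2.

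Zmat3, an RNA-binding zinc finger protein that controls splicing and mRNA stability, was the most even within the _290419 set, at 113, 111, 113 and 110.0 CPM. The other 8 libraries lay between 63.7 and 85.4 CPM with a median of 70.1 CPM, and the sets did not overlap. Its log2 fold change of 0.67 (SE 0.06, adjusted p = 2.7e-07) was not resolved from the 0.65 of Ccng1. Sesn1, a sestrin that restrains mTORC1 under stress, was at 29.3, 28.9, 28.8 and 26.1 CPM in the _290419 libraries, below the 31.7 to 41.3 CPM (median 37.9 CPM) of all _120519 libraries. Its log2 fold change was -0.38 (SE 0.06, adjusted p = 1.4e-04).

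Trp53 itself was at 183, 171, 181 and 185 CPM in the _290419 libraries and between 158 and 208 CPM (median 167 CPM) in the others. The highest value of all was that of N-VEGF no dox library 1_120519. Without this library Trp53 passed the test at a log2 fold change of 0.11 (adjusted p = 0.027), and likewise with the libraries with dox alone, at 0.16 (adjusted p = 0.038). Both are smaller than the changes of the 7 members that passed with all libraries.

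Other p53 targets went in both directions as well. From a list of 41 genes 35 were tested, of which 17 were higher and 8 lower in the _290419 libraries (22.2% and 23.5% of all genes), and their median log2 fold change was 0.20 (0.01 over all genes). By role, 7 were higher and 2 lower of 9 apoptosis genes, and 4 and 2 of 8 genes of arrest and growth control. For metabolism and oxidant control it was 2 and 2 of 9, and for DNA repair and nucleotide supply 2 and 1 of 5. For RNA and ribosome it was 2 and 0 of 3, and for feedback 0 and 1 of 1. These roles make up the 35 targets, and all are read against the same 22.2% and 23.5%. The 4 with the largest rise were Sfn (14-3-3 sigma, which holds cells in G2), with 1.52 (SE 0.23, adjusted p = 7.2e-05), Ephx1 (microsomal epoxide hydrolase), with 1.51 (SE 0.06, adjusted p = 1.2e-10), the death receptor Fas, with 1.48 (SE 0.22, adjusted p = 5.3e-05), and the receptor Eda2r, with 0.67 (SE 0.09, adjusted p = 3.0e-05). Sfn and Fas were scarce, with means of 1.44 and 1.03 CPM, whereas Ephx1 had 36.4 CPM. The 4 with the largest fall were Ddit4 (REDD1, which restrains mTORC1), at -1.09 (SE 0.07, adjusted p = 3.7e-08), the antiproliferative gene Btg2, at -0.92 (SE 0.11, adjusted p = 6.9e-06), Ppm1d (the phosphatase Wip1, which turns p53 signalling off), at -0.53 (SE 0.07, adjusted p = 2.1e-05), and Gadd45a, at -0.51 (SE 0.12, adjusted p = 0.0020). Of the exon bases of Gadd45a 19.1% overlap an antisense gene. The 6 other listed targets were too scarce to test: Pmaip1, Perp, Rprm, Gdf15, Igfbp3 and Ptprv, each under 0.474 CPM in every library.

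Of 16 regulators of p53 that were tested, 6 were lower and 0 higher by edgeR, beside 23.5% and 22.2% of all genes, so 6 of 16 passed where 45.6% of all genes did (DESeq2 also gave 0 higher, and 10 genes in either direction had an unadjusted p under 0.05 by edgeR). The largest falls were those of Hipk2, a kinase that phosphorylates p53 for apoptosis, at -1.31 (SE 0.13, adjusted p = 1.3e-06), and of Atm, the kinase that signals DNA breaks, at -0.49 (SE 0.07, adjusted p = 6.3e-05). Mdm4 did not pass, at 0.12 (SE 0.10, adjusted p = 0.33). A further list held 21 cell cycle genes that are known to fall when p21 rises, through the DREAM repressor complex. Of these 9 were higher and 2 lower in the libraries with more Cdkn1a, beside 22.2% and 23.5% of all genes. In both directions together 11 of 21 passed, a share near the 45.6% of all genes. Cdc25c and Birc5 were higher, at 0.41 (SE 0.06, adjusted p = 7.9e-05) and 0.35 (SE 0.05, adjusted p = 7.1e-05), and Mki67 and Bub1b lower, at -0.33 (SE 0.07, adjusted p = 0.0010) and -0.20 (SE 0.05, adjusted p = 0.0060). The median over the 21 genes was 0.10, and 10 did not pass.

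Fibroblast markers also moved with the suffix. Of 9 tested, 4 were lower and 3 higher, beside 23.5% and 22.2% of all genes. Pdgfra at -1.32 and Col3a1 at -1.22 were the lowest and Thy1 at 0.53 the highest. Total counts and the share of mitochondrial transcripts overlapped between the suffixes (3.92% to 6.17% in _120519 libraries and 4.56% to 5.38% in _290419 libraries). The part of these differences in the result for the p53 targets was not tested.

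**Figure D3:**
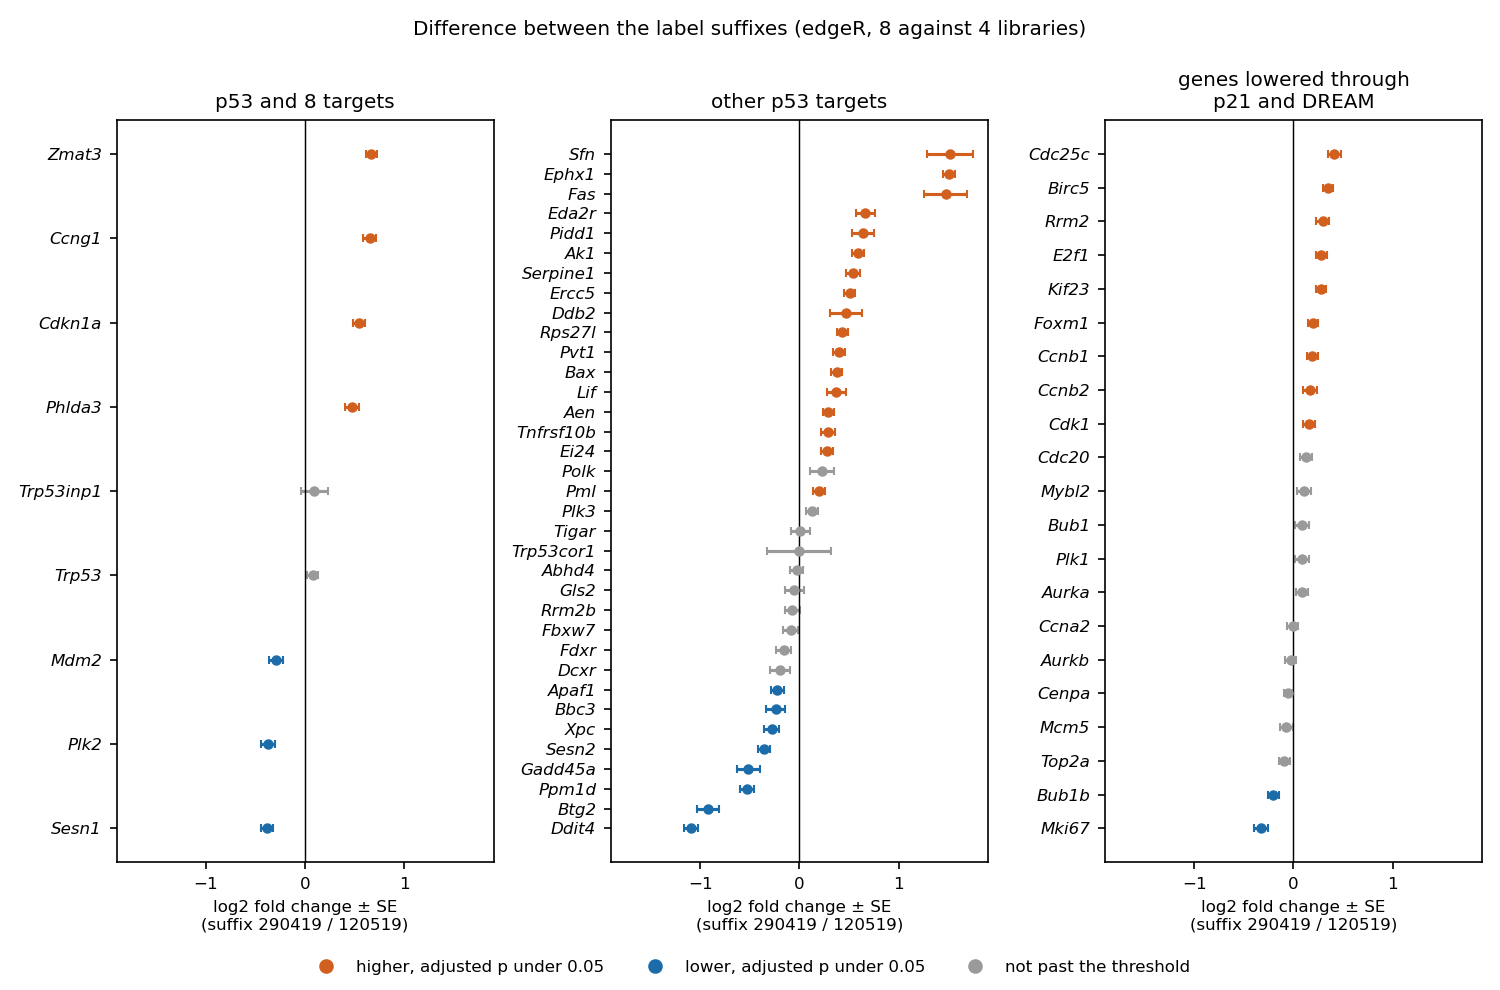
Log2 fold changes (_290419 over _120519) with SE for the 9 members, 35 other p53 targets and 21 genes lowered through p21 and DREAM, coloured by whether they passed an adjusted p under 0.05 and in which direction. The members divide into 4 higher, 3 lower and 2 that did not pass, and the other targets into 17 higher, 8 lower and 10 that did not pass.

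Dox was then compared with no dox, to ask whether N-VEGF or nuclear N-VEGF changed p53 target transcripts. No member passed in any of these comparisons. In NLS-N-VEGF cells the log2 fold changes of the 9 members lay between -0.24 and 0.29, with SE from 0.09 to 0.28, and in N-VEGF cells between -0.23 and 0.26. Few genes passed at all: 3 genes in NLS-N-VEGF cells (0.022%), 5 in N-VEGF cells (0.0367%) and 8 for the mean of both populations (0.0588%). At an unadjusted p under 0.05 there were 0, 0 and 1 members, against 2.34%, 1.48% and 3.11% of all genes, the 1 being Trp53, at -0.14 (SE 0.06, unadjusted p = 0.045) for the mean of both populations. DESeq2 also called 0 members in each. In NLS-N-VEGF cells Trp53 had 175, 177 and 183 CPM when untreated and 159, 159 and 171 CPM under dox. These ranges did not overlap, but the share of all genes that separate in this way was not counted, so this is only a description. In N-VEGF cells the values were 208, 173 and 181 CPM, then 158, 161 and 185 CPM, which overlapped.

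The labels give 1 library of each group the same number and suffix. These same-labelled libraries varied together across groups, but some libraries with different labels did so as well. The suffix is part of the label. With a suffix term alone the coefficient of variation between libraries was 7.93%, beside 7.86% with a block by the whole label. It was 15.5% without either. With a replicate block in the fit, the spread was smaller and the count of calls over all genes rose, to 17 (0.125%), 15 (0.11%) and 77 (0.566%), while the members called stayed at 0. At an unadjusted p under 0.05 there were then 4, 2 and 5 members, against 7.27%, 5.4% and 9.3% of all genes. Over all alternative fits, by edgeR or DESeq2, the lowest adjusted p-values for dox in NLS-N-VEGF cells were 0.076 (Cdkn1a), 0.093 (Sesn1) and 0.10 (Ccng1). For the mean of both populations the lowest was 0.079 (Ccng1). With the block Cdkn1a was nearest to the threshold. In NLS-N-VEGF cells its 3 pairs gave log2 ratios from 0.11 to 0.41, and the blocked log2 fold change was 0.31 (SE 0.08, unadjusted p = 0.0019, adjusted p = 0.25), an interval of 0.14 to 0.47 at 2 SE. In N-VEGF cells its pairs ran from -0.05 to 0.24. For the mean of both populations it was 0.20 (SE 0.06, adjusted p = 0.18), with 5 of 6 pairs higher with dox.

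The other 4 members under an unadjusted 0.05 in the blocked mean of both populations were Sesn1 at -0.16 (SE 0.06), Trp53 at -0.15 (SE 0.06), Plk2 at 0.16 (SE 0.06) and Zmat3 at -0.13 (SE 0.06), with adjusted p-values from 0.37 to 0.49. Sesn1 and Zmat3 were lower with dox in 6 of 6 pairs and Trp53 in 5 of 6. The largest falls of Zmat3 (-0.42) and Trp53 (-0.39) were in the N-VEGF pair 1_120519. Its untreated library had the highest value of its suffix for both genes. In NLS-N-VEGF cells Zmat3 fell by only -0.07 to -0.02. The share of all genes with as many pairs on 1 side was not computed, for these or any other counts of pairs. Plk2 was higher in 3 of 3 pairs of N-VEGF cells and in 1 of 3 of NLS-N-VEGF cells. Over all members the intervals at 2 SE in the blocked fit reached from -0.40 to 0.47 in NLS-N-VEGF cells, from -0.57 to 0.43 in N-VEGF cells and from -0.37 to 0.32 for the mean of both. Without the block they reached from -0.59 to 0.75, from -0.74 to 0.60 and from -0.50 to 0.53.

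**Figure D4:**
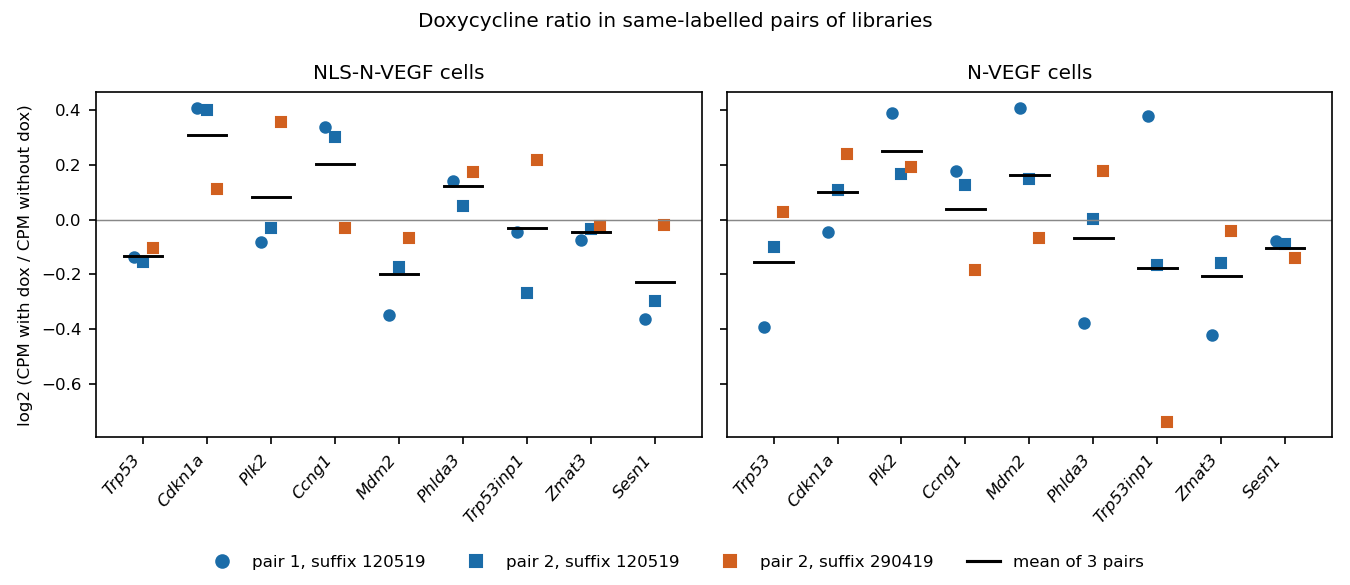
Log2 ratios of CPM with dox to CPM without dox for the 9 members in the 3 same-labelled pairs of each population, with a black line at the mean of the pairs. The pairs of Cdkn1a in NLS-N-VEGF cells all lie above 0, between 0.11 and 0.41, and those of Sesn1 and Zmat3 lie below 0 in both populations.

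Among the other targets Ephx1 was the 1 gene that passed in these fits, at 0.31 (SE 0.06, adjusted p = 0.023) in the blocked mean of both populations, and 0 of 35 passed without the block (1 at an unadjusted p under 0.05). In NLS-N-VEGF cells the untreated libraries had Ephx1 at 20.1, 19.2 and 58.4 CPM and the dox libraries at 23.8, 25.1 and 65.1 CPM. For N-VEGF these were 22.3, 18.6 and 57.1 CPM, then 25.1, 26.1 and 75.7 CPM. It was higher with dox in 6 of 6 pairs. The fibroblast marker Pdgfra fell in the same fit, by 0.49 on the log2 scale (adjusted p = 0.0042), and its part in the result was not tested. None of the 16 regulators and none of the 21 DREAM genes passed in these comparisons, without or with the block. Without the block 0 regulators and 0 DREAM genes had an unadjusted p under 0.05 in either population or in the mean.

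The effect of dox was next compared between the populations. No gene passed (0%), and 0 members had an unadjusted p under 0.05 (0.852% of all genes). With the block, where again 0% of genes passed, Mdm2 was the 1 member under 0.05 (3.41% of all genes). In NLS-N-VEGF cells Mdm2 stood at 239, 234 and 172 CPM before dox and at 188, 208 and 164 CPM after it, lower in 3 of 3 pairs. The N-VEGF libraries stood at 178, 210.3 and 187 CPM before and at 236, 233 and 178 CPM after, higher in 2 of 3 pairs. The difference of the dox effects was -0.36 (SE 0.12, unadjusted p = 0.0100, adjusted p = 0.9998), and it did not pass. The lowest value of N-VEGF cells without dox is that of library 1_120519.

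NLS-N-VEGF and N-VEGF cells were then compared directly. With dox, 0 genes passed (0%) and 0 members had an unadjusted p under 0.05 (1.18% of all genes), and the members' log2 fold changes ran from -0.21 to 0.21. Without dox 0 genes passed (0%) and again 0 members were under 0.05 (0.603%), with changes from -0.22 to 0.23. With the block 2 genes passed with dox (0.0147%) and 0 without (0%), none of them a member. At an unadjusted p under 0.05 the block gave Mdm2 with dox, at -0.21 (4.56% of all genes), and Plk2 and Phlda3 without dox, at 0.21 and -0.23 (3.67% of all genes), with adjusted p-values of 0.94 or above. The change of Phlda3 varied with the library left out. In the fit without the block it was -0.22 with all libraries and -0.17 without N-VEGF no dox library 1_120519. Over all single leave-outs it ran from -0.41 to -0.14.

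Whether the dox effect differed between the suffixes was tested with 1 term for both populations. No gene passed (0%), by edgeR or DESeq2, and 927 genes, or 6.81%, had an unadjusted p under 0.05. Ccng1 was the 1 member among them. In the _120519 pairs it was higher with dox in 4 of 4, by 0.13 to 0.34 on the log2 scale, and in the _290419 pairs lower in both, by -0.03 and -0.18. The difference was -0.34 (SE 0.11, unadjusted p = 0.0057, adjusted p = 0.73).

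The genes whose profile over the 12 libraries came nearest to that of a member were found by the root mean square difference of centred log2(CPM + 2) among 8914 genes. For Cdkn1a they were Limk1, Wdr1 and Pcyt1b, at 0.057, 0.066 and 0.076, beside an SD of 0.30 for Cdkn1a itself. For Ccng1, the member with the largest SD (0.34), they were Ckap2, Xkr6 and Gpr137b, at 0.080, 0.091 and 0.091. The 12 libraries share the difference between the suffixes, along which both members and all 6 genes vary, so the likeness is given as a description.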

How the data were processed

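RNA of the 12 libraries was sequenced by the authors as single reads. They trimmed reads with Trim Galore, aligned them with TopHat2 2.1.0 (Bowtie2 2.2.6) to GRCm38 and counted them per gene with HTSeq 0.6.1, with the strand setting not given in the sources used here. The authors deposited these raw counts without any scaling, and all 12 columns were matched to labels.

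Counts were analysed with R 4.3.3 and edgeR 4.0.16: filterByExpr by group kept 13608 of 54447 features, libraries were scaled by TMM, and quasi-likelihood fits with 1 mean per group were made to all 12 libraries. The suffix, and its product with dox, were added to test them. A call had an adjusted p under 0.05. SE were derived from the F statistic. Intervals at 2 SE include the spread between libraries, and floors (3 counts) cover counting error only. Alternatives were DESeq2 1.42.0, RLE scaling, other filters, subsets of libraries, a suffix term, a replicate block and leaving out each library. The fits for the mean dox effect and for the suffix were tested on simulated data, where 1 draw went over the limit set for false calls. More draws were then made and the limit was applied to all draws together, which stayed under it. The simulated spread was that of the suffix fit (coefficient of variation 7.93%), with no suffix difference in the dox draws. The dox fits had 15.5%, so the simulation does not show how they perform.

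The replicate label (number and suffix) was used as the block. Deviations from group means correlated at a mean r of 0.59 for 18 same-labelled pairs (0.40 to 0.83), across 12058 genes. For 36 others the mean was -0.25 (-0.76 to 0.68), so the ranges overlapped. Deviations within a group cancel, which by itself draws the mean of the others down. These correlations therefore do not show that libraries pair by the whole label and not by the suffix alone.

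Members and lists were chosen with earlier results of these data known, the lists from general knowledge. Members, Cdkn2a and Mdm4 were always named. Of other targets up to 4 on each side, and of regulators and DREAM genes up to 2, with the largest change past the threshold and a mean of at least 1 CPM were named. Nearest patterns were the 3 genes nearest to Cdkn1a and to the member with the largest SD, among genes at 10 CPM or more on average. Markers were named after their values were seen.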

Additional observations from a re-analysis of the deposited data

Results flagged for a closer look

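Within the libraries that share a suffix, each member's highest and lowest library were compared with the others by Dixon's test, in 18 sets of 8 or 4 libraries, where chance alone gives about 1 flag in 20 sets. In 3 sets N-VEGF no dox library 1_120519 stood above the other 7 libraries with suffix _120519: Trp53 at 208 CPM, Phlda3 at 73.3 CPM and Zmat3 at 85.4 CPM. This library also detected the fewest genes. Without it the log2 fold change between the suffixes was 0.11 for Trp53, 0.52 for Phlda3 and 0.70 for Zmat3.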

How the results depend on the processing

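Between the suffixes, the 7 members kept their direction in all 21 alternatives, and 6 of them (Zmat3, Ccng1, Cdkn1a, Phlda3, Sesn1 and Plk2) also kept an adjusted p under 0.05. Mdm2 lost it with the libraries without dox alone and with N-VEGF libraries alone, and Trp53 gained it in 2 alternatives. Members called numbered 6 to 8, and other targets called 18 to 25. Over all genes, calls fell from 6207 to 2902 with libraries without dox alone and to 3278 with N-VEGF libraries alone, which have fewer samples, and lay between 4929 and 7200 without single libraries.

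For dox and the populations, 0 of 1215 refitted values, each of 1 member in 1 alternative fit, were called. The sign of an uncalled change turned in 80 of these values. Over all genes, calls depended on the setting, and the cause was not tested. With the replicate block, NLS-N-VEGF cells had 17 calls for dox, N-VEGF cells 15, the mean 77 and the populations with dox 2, and the block changed no call of a member. With suffix as a covariate these were 15, 13, 73 and 2. With no filter they were 53, 36, 77 and 9, with 1 for the difference of dox effects, 10 for the populations without dox and 20 for dox by suffix. With suffix _120519 libraries alone they were 109, 16, 135 and 11, with 4 for the difference and 5 without dox. DESeq2 gave 12, 8 and 21 for dox in NLS-N-VEGF cells, in N-VEGF cells and in the mean, and fits of the 2 groups alone gave 0 and 1 in the populations. Without single libraries, counts were 0 to 3 in NLS-N-VEGF cells, 1 to 7 in N-VEGF cells, 5 to 9 for the mean and 0 to 3 for dox by suffix. Other p53 targets called for dox numbered 0 to 2. No member level moved by more than its SD under RLE scaling or no scaling.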
